A study of Mus musculus with 17 samples.

Results

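The 9 genes described here code for proteins that couple heart muscle cells to each other at the intercalated disc, and they were chosen by name from the 31647 features of the count table, where all 9 had a feature of their own. They were Gja1 of the gap junction, its scaffold Tjp1, Cdh2 and Ctnna3 of the adherens junction, Jup, which serves both the adherens junction and the desmosome, and Dsp, Pkp2, Dsg2 and Dsc2 of the desmosome. None of them codes for a voltage-gated channel, and other genes of conduction were followed as a separate list. The libraries came from 17 young adult male C57BL/6J wild-type mice, each labelled wildtype with no transgene or other allele named. Of these, 8 left ventricles came from mice with sham surgery, in which no artery was tied, and 9 infarct zones (IZ) came from mice with myocardial infarction (MI) after permanent ligation of the left anterior descending artery. All tissue was taken 5 days after surgery. Sham tissue was taken from the left ventricle and the IZ was dissected out of it, so the groups differed in the piece of ventricle as well as in the ligation, and these cannot be told apart.

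The intercalated disc is the end-to-end contact between cardiomyocytes. Cadherins of the adherens junction tie the actin filaments of neighbouring cells together through catenins, desmosomal cadherins tie the intermediate filaments together through plakophilins, plakoglobin and desmoplakin, and connexin channels between them pass the electrical impulse. Inherited defects of the desmosomal members are known causes of arrhythmogenic cardiomyopathy, and rearrangement of connexins at the border of infarcts is a long-studied feature of post-infarction arrhythmia.

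The stretches of DNA just before the transcription starts of Dsp, Gja1, Jup and Tjp1 are shown to place members with large and small changes side by side by their letters. Each run holds the 250 bases before the RefSeq start in build GRCm38.p6, read 5′ to 3′ on the strand of the gene, and capitals mark matches on either strand to one of 7 motifs searched, the GC box GGGCGG, the CCAAT box, the TATA box TATAAA, the GATA site AGATAA, the M-CAT site CATTCC, the AP-1 site TGANTCA and the E box CAGCTG. The windows lie at chr13:38151044-38151293 on the plus strand for Dsp, chr10:56377050-56377299 on the plus strand for Gja1, chr11:100397791-100398040 on the minus strand for Jup and chr7:65371245-65371494 on the minus strand for Tjp1.
Dsp: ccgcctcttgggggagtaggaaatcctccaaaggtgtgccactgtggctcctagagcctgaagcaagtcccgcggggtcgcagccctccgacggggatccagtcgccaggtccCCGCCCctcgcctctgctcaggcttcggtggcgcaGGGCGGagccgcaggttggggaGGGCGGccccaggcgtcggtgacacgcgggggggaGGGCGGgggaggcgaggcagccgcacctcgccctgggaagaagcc
Gja1: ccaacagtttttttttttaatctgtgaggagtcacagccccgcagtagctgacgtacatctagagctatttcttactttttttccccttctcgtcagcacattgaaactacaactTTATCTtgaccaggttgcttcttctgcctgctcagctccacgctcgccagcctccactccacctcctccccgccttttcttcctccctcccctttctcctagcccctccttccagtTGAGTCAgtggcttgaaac
Jup: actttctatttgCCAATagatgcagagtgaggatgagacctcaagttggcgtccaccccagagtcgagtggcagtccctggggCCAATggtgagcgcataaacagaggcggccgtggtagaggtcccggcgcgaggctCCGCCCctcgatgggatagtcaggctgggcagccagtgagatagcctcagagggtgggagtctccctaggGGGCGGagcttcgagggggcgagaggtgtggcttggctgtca
Tjp1: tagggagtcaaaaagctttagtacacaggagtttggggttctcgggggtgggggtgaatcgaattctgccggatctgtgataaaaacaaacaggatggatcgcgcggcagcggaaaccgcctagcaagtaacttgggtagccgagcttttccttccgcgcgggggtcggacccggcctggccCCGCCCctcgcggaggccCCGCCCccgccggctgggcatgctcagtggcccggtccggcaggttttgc

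The window of Dsp held 4 GC boxes, that of Jup 2 GC boxes and 2 CCAAT boxes, and that of Tjp1 2 GC boxes. The window of Gja1 held no GC box, but 1 GATA match on the opposite strand at 135 to 130 bases before the start and 1 AP-1 match at 19 to 13 bases before it. Of 32851 windows of the same length before RefSeq starts, 32.7% held a GC box, 33.8% a CCAAT box, 12.4% a TATA box, 9.99% a GATA site, 12.6% an M-CAT site, 6.75% an AP-1 site and 13% an E box. The G and C content was 72.4% for Dsp, 63.2% for Tjp1, 62% for Jup and 50% for Gja1, against a median of 52.4% over all windows. The Dsp window overlaps an exon of Gm10129, a provisional transcript model on the opposite strand, and the Tjp1 window lies between exons of the longer Tjp1 gene in GENCODE M21. A match of letters is a description of the window, and none of the assays here measured binding at it. Ctnna3 has 3 RefSeq starts and was not printed, and Pkp2 had no entry.

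Total counts per library ran from 1237675 to 4738307, and 12301 genes were tested. All values are CPM (counts relative to a library size scaled by the trimmed mean of M-values, TMM), and a gene was called at an adjusted p under 0.05 in the quasi-likelihood test of edgeR, adjusted by Benjamini-Hochberg over all genes tested. Over all tested genes 69.5% were called, 33.1% lower and 36.3% higher in the IZ, and the median log2 fold change was 0.05. The TMM factors spanned 0.62 to 1.53 and were larger in the IZ. The choice of scaling therefore bore on the size of every change and on the direction of small ones. With the total count alone the median over all genes became 1.13 and 14.3% of the 10710 genes called were lower, against 47.7% of 8544 with TMM. In sham, 12 cardiomyocyte genes together reached 80269 to 95920 CPM. One library stood apart. IZ replicate 1 had a cardiomyocyte index (mean log2 CPM of those 12 genes) of 11.1. In the other IZ libraries the index was 7.76 to 9.01, and in sham it was 12.1 to 12.5. The mitochondrially encoded share of counts was 19.5% in replicate 1, 4.22% to 6.78% in the other IZ libraries and 22.9% to 32.4% in sham.

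All 9 disc genes were lower in the IZ than in sham, against 33.1% of all tested genes, and for 6 of them every IZ library lay below every sham library, against 16.5% of all tested genes. Their median log2 fold change was -1.85, from -0.65 for Tjp1 to -2.93 for Dsc2. Without IZ replicate 1 all 9 were still called lower and their median was -2.15. With the total count alone 7 were lower, 1 was higher and their median was -0.84. The 12 cardiomyocyte markers were all lower as well (median -3.27), between -4.19 for Tnni3 and -2.12 for Actc1, and their summed level in the IZ was 3571 to 35577 CPM, highest in replicate 1. Without that library their median was -3.89 and Tnni3 was at -5.01, and with the total count alone the median was -2.32. In these bulk samples, fewer cardiomyocytes and less RNA per cardiomyocyte cannot be told apart. Of the markers of other cells, 7 of 8 fibroblast genes and 8 of 8 macrophage genes were higher, while 4 of 8 endothelial genes and 4 of 7 mural genes were lower, and 2 of the mural genes were higher. For these last lists the direction depended on the scaling, since with the total count alone 2 endothelial genes were lower and 5 higher (median 0.54 against -0.50) and 2 mural genes were lower and 3 higher (median 0.15 against -0.92). The summed fibroblast level was 1527 to 2953 CPM in sham and 12565 to 20499 CPM in the IZ, and the summed macrophage level was 426 to 607 CPM and 2412 to 5843 CPM. The endothelial sum was 590 to 1064 CPM in sham and 375 to 642 CPM in the IZ. Their part in the values of the disc genes was not tested. The epithelial and mesothelial list, whose cells also carry desmosomes, had 3 of 8 genes tested, of which 2 were higher, and it summed to 8.84 to 22.9 CPM in sham and 13.3 to 120 CPM in the IZ.

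**Figure D1:**
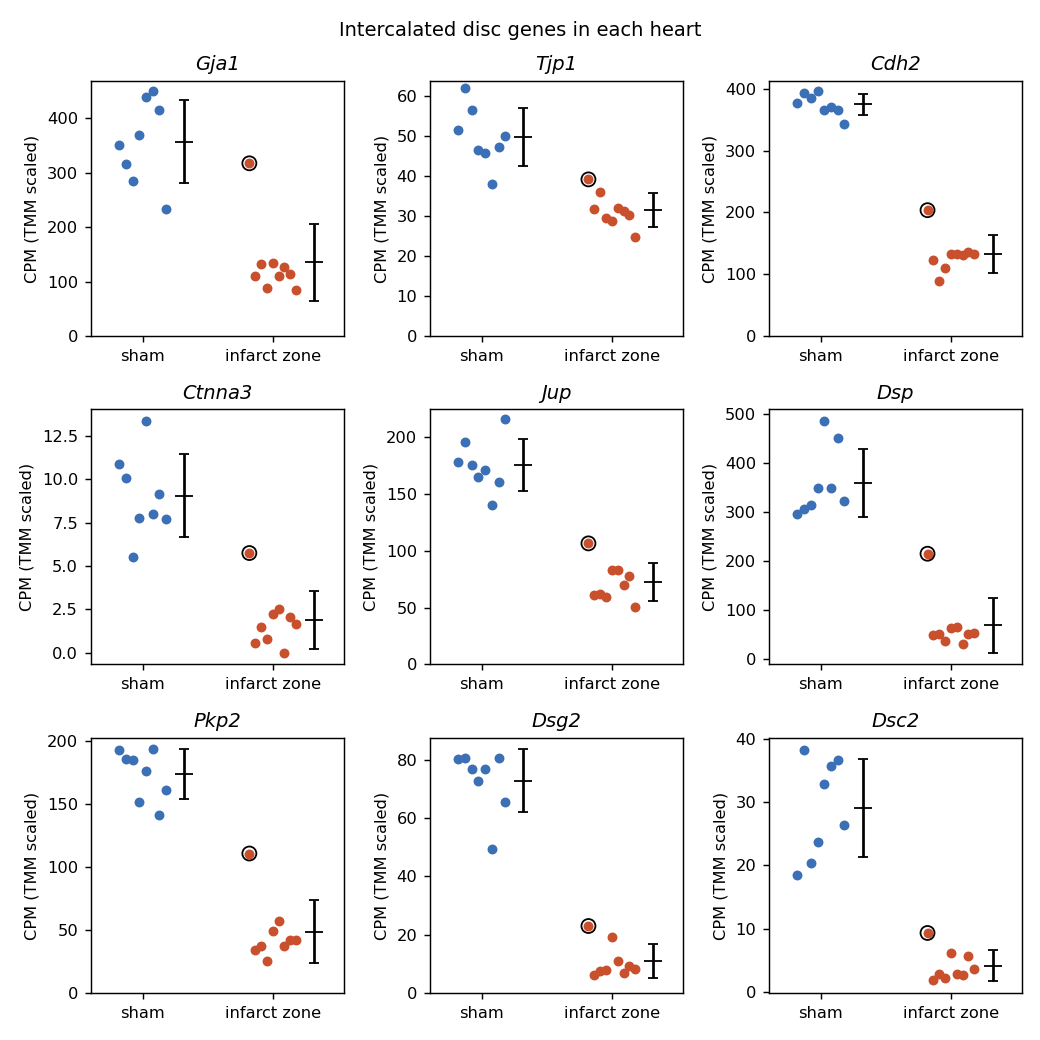
Level of each of the 9 disc genes in CPM (TMM scaled, linear axes) in 8 sham (blue) and 9 infarct zone (red) libraries, with the mean and SD beside the points and IZ replicate 1 circled. Replicate 1 is the highest IZ library for all 9 genes, at 317 CPM for Gja1, within the sham range of 234 to 449 CPM.

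Gja1 codes for the main connexin of working ventricular muscle (ENSMUSG00000050953, chr10:56377330-56402513, plus strand, mm10). In sham its lowest, median and highest levels were 234, 360 and 449 CPM, and in the IZ they were 85.3, 113 and 317 CPM. The groups overlapped through replicate 1 alone, since the other 8 IZ libraries reached at most 135 CPM and lay below every sham library. The sham mean was 357 ± 76.4 CPM (SD, n = 8) and the IZ mean 135 ± 70.5 CPM (SD, n = 9), and all means below carry the same SD and n. The log2 fold change was -1.40 (SE 0.22, adjusted p = 4.34e-06, edgeR).

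Tjp1 codes for zonula occludens 1, a scaffold that sits at the rim of connexin plaques and is also made by endothelial and epithelial cells (ENSMUSG00000030516, chr7:65296165-65527781, minus strand). Sham libraries held 37.9, 48.7 and 61.8 CPM as lowest, median and highest, and IZ libraries 24.8, 31.2 and 39.1 CPM. Only replicate 1 of the IZ reached into the sham range. The means were 49.6 ± 7.27 and 31.5 ± 4.17 CPM, with a log2 fold change of -0.65 (SE 0.11, adjusted p = 1.70e-05, edgeR). This direction depended on the scaling. With the total count alone it turned to 0.41 (adjusted p = 0.00420, edgeR), which is below the median of 1.13 that all genes had under that scaling.

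Cdh2 codes for N-cadherin, the classical cadherin of the disc (ENSMUSG00000024304, chr18:16588877-16809246, minus strand). Its sham levels were tightly grouped, from 343 over a median of 374 to 397 CPM, a narrow spread. The IZ libraries held 89.5, 132 and 204 CPM as lowest, median and highest, and the groups did not overlap. The mean went from 375 ± 17.2 to 132 ± 30.7 CPM, with a log2 fold change of -1.51 (SE 0.13, adjusted p = 5.88e-10, edgeR).

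Ctnna3 codes for alphaT-catenin, an alpha-catenin of muscle that links both kinds of junction (ENSMUSG00000060843, chr10:63430098-65003667, plus strand). It was the least counted of the 9 genes, with 7 to 26 counts per sham library and 0 to 16 per IZ library, so its values carry the most counting error. The sham levels were 5.49, 8.58 and 13.3 CPM as lowest, median and highest, and the IZ levels were 0, 1.67 and 5.74 CPM. IZ replicate 7, the library with the fewest counts, had none, which allows up to 3 counts. All IZ libraries but replicate 1 lay below every sham library. The means were 9.04 ± 2.39 and 1.89 ± 1.67 CPM, with a log2 fold change of -2.36 (SE 0.37, adjusted p = 5.69e-06, edgeR).

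Jup codes for plakoglobin, an armadillo protein that binds both classical and desmosomal cadherins (ENSMUSG00000001552, chr11:100368958-100397763, minus strand). Its lowest, median and highest levels were 141, 173 and 216 CPM in sham and 50.9, 69.8 and 107 CPM in the IZ, with no overlap between the groups. The means were 175 ± 22.9 and 72.6 ± 17.1 CPM, and the log2 fold change was -1.28 (SE 0.13, adjusted p = 1.53e-08, edgeR). With the total count alone it was -0.23 and not called (adjusted p = 0.0960, edgeR). The 3′ ends of Jup transcripts matched transcripts of 77 other genes at 95% identity or more over at least 100 bases, so reads of that stretch could have been shared and the level of Jup is less certain than that of the other genes.

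Dsp codes for desmoplakin, which anchors desmin filaments to the desmosome (ENSMUSG00000054889, chr13:38151294-38198577, plus strand). It had 296, 335 and 485 CPM as lowest, median and highest in sham, and 30.6, 51.2 and 214 CPM in the IZ. Without overlap between the groups, replicate 1 still stood far above the next IZ library, at 64.8 CPM. The means were 359 ± 70.3 and 67.8 ± 56.0 CPM. The log2 fold change was -2.41 (SE 0.29, adjusted p = 1.25e-07, edgeR).

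Pkp2 codes for plakophilin 2, the plakophilin of the cardiac desmosome, which also touches the sodium channel and connexin complexes (ENSMUSG00000041957, chr16:16213318-16272712, plus strand). The sham libraries had 141, 181 and 194 CPM as lowest, median and highest and the IZ libraries 25.1, 41.9 and 111 CPM. The groups were apart, with means of 173 ± 19.9 and 48.4 ± 25.0 CPM. The log2 fold change was -1.85 (SE 0.21, adjusted p = 4.01e-08, edgeR).

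Dsg2 and Dsc2 code for the desmosomal cadherins desmoglein 2 and desmocollin 2, and both lie on chromosome 18, Dsg2 at chr18:20558074-20604521 on the plus strand (ENSMUSG00000044393) and Dsc2 at chr18:20030633-20059554 on the minus strand (ENSMUSG00000024331). Dsg2 had 49.5, 76.9 and 80.7 CPM as lowest, median and highest in sham and 6.20, 8.37 and 23.0 CPM in the IZ. Dsc2 had 18.4, 29.6 and 38.3 CPM in sham and 1.93, 2.88 and 9.33 CPM in the IZ. For neither did the groups overlap, and the sham means were 6.62 and 7.02 times the IZ means. The means were 72.9 ± 10.7 and 11.0 ± 5.90 CPM for Dsg2, with a log2 fold change of -2.79 (SE 0.22, adjusted p = 1.28e-10, edgeR). For Dsc2 they were 29.1 ± 7.79 and 4.14 ± 2.45 CPM, with a log2 fold change of -2.93 (SE 0.27, adjusted p = 1.43e-09, edgeR). IZ libraries held 5 to 26 counts of Dsc2.

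Set against each other, the 9 genes fell by different amounts. For each of their 36 pairs the log2 ratio of the genes was compared between the groups by a two-sided exact permutation test over the 17 libraries, a comparison added after the levels had been seen, and 26 pairs differed at an adjusted p under 0.05 over the 36 pairs, also without IZ replicate 1. How many pairs of other genes would differ was not computed, so the count says nothing particular to these genes. Tjp1 fell less than each of the other 8 genes, with the Jup to Tjp1 ratio changed least, by -0.64 (adjusted exact permutation p = 3.29e-04). Gja1, Cdh2 and Jup were not told apart from each other, the nearest to the threshold being Cdh2 to Jup at -0.24 (adjusted exact permutation p = 0.0661). Pkp2 fell more than these 3 genes, by 0.66 more on the log2 scale than Jup (adjusted exact permutation p = 0.00288), and less than Dsp, the Dsp to Pkp2 ratio changing by -0.68 (adjusted exact permutation p = 0.00165). Dsp, Dsg2 and Dsc2 fell most and their pairs did not pass the threshold, with changes in ratio of 0.18 for Dsp to Dsg2 and 0.20 for Dsp to Dsc2. The ratios of Ctnna3 to Dsp, Pkp2, Dsg2 and Dsc2 did not pass it either. The prior count of 1 damps the falls of sparsely counted genes, so their ratios can shift in either direction. Ratios also average log2 values over libraries, which the fitted log2 fold changes do not, so they need not match. The Dsp to Ctnna3 ratio changed by -0.25, while the fitted changes were -2.41 for Dsp and -2.36 for Ctnna3. Dsp was not sparsely counted, with 57 to 597 counts per IZ library, and the source of this gap was not tested.

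Genes were also set against a relative of their family. Jup fell relative to Ctnnb1, the beta-catenin gene, whose own level was 284 CPM in sham and 279 CPM in the IZ (log2 fold change -0.02, adjusted p = 0.831, edgeR). The ratio of Jup to Ctnnb1 was 0.615 in sham and 0.256 in the IZ, lower in 9 of 9 IZ libraries than in any sham library, a log2 difference of -1.27 (95% confidence interval -1.56 to -0.98, exact permutation p = 8.23e-05, adjusted over the 7 pairs 2.88e-04). Ctnna3 fell relative to Ctnna1, the alpha-catenin gene of most tissues, by -1.30 (interval -2.08 to -0.52, exact permutation p = 3.70e-04, adjusted 6.48e-04). The size of this change depended on the treatment of low counts, at -0.56 with a prior count of 5 (exact permutation p = 0.00510) and -0.83 between medians (exact permutation p = 0.00144). Ctnna1 itself was lower, at 263 and 126 CPM (log2 fold change -1.06, SE 0.14).

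Cdh2 and Cdh11 moved in opposite directions. Cdh11, a cadherin of mesenchymal cells such as fibroblasts, had 1.91 to 12.1 CPM in sham and 14.5 to 42.5 CPM in the IZ, with no overlap, and rose by 2.09 on the log2 scale (SE 0.29). The Cdh2 to Cdh11 ratio dropped from 62.0 to 4.89, a log2 difference of -3.67 (interval -4.52 to -2.81, exact permutation p = 4.11e-05, the smallest this test can give, adjusted 2.88e-04).

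Gja1 fell relative to Gjc1, a connexin of the conduction system and of mural cells, by -1.26 (interval -1.75 to -0.77, exact permutation p = 1.23e-04, adjusted 2.88e-04). Gjc1 had means of 17.7 ± 2.90 and 15.4 ± 4.34 CPM and was not called (adjusted p = 0.299, edgeR).

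The library size cancels in a ratio apart from the prior count, but not in the partners' own changes: with the total count alone Ctnnb1 was at 1.05 and Gjc1 at 0.85, both called higher, and Ctnna1 was at -0.01 and not called, beside the median of 1.13 over all genes.

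For the other pairs no difference was called. Pkp2 to Pkp4 changed by -0.40 (interval -0.80 to 0.01, exact permutation p = 0.0607, adjusted 0.0708), and Pkp4 was itself lower, at 76.3 and 27.0 CPM (log2 fold change -1.51, SE 0.17). Leaving out 1 of 3 IZ libraries brought an unadjusted p under 0.05, with a change of -0.50 without replicate 8 (exact permutation p = 0.0120), -0.47 without replicate 1 (exact permutation p = 0.0308) and -0.46 without replicate 6 (exact permutation p = 0.0350). Dsg2 to Dsc2, the pair that together makes the desmosomal contact, changed by 0.01 (interval -0.45 to 0.48, exact permutation p = 0.947).

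**Figure D2:**
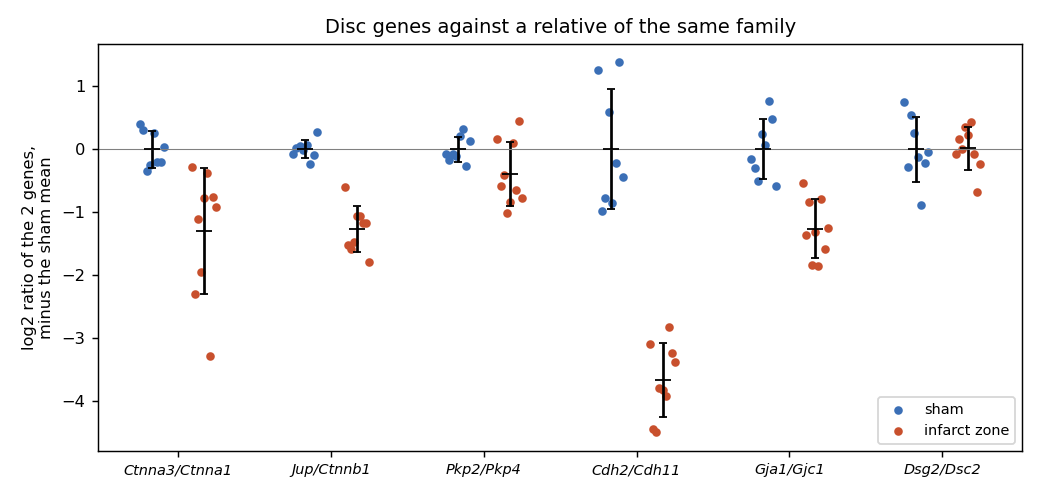
Log2 ratio of 6 pairs of related genes in 8 sham (blue) and 9 infarct zone (red) libraries, shown minus the sham mean of each pair, with the mean and SD in black. The ratio of Cdh2 to Cdh11 lies lower by 3.67 on average in the IZ, and that of Dsg2 to Dsc2 is centred at 0.01.

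Relative to the cardiomyocyte markers, with libraries scaled to an equal mean log2 level of those 12 genes, 8 of the 9 disc genes were higher in the IZ. Nothing particular to them follows from this, since 96.9% of all tested genes were higher and 0.553% lower on that scale. The size of the shift differed among them, from 3.16 for Tjp1 over 2.48 for Jup, 2.24 for Cdh2, 2.23 for Gja1 and 1.74 for Pkp2 to 1.06 for Ctnna3, 1.03 for Dsp and 0.83 for Dsg2. Dsc2 was at 0.65 (SE 0.36, adjusted p = 0.0778, edgeR) and was not called. The falls of Gja1, Cdh2, Pkp2, Jup and Tjp1 on the TMM scale were each smaller than that of Actc1, the marker that fell least.

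Among the 9 IZ libraries, the disc genes were compared with the cardiomyocyte index, over all pairings of the libraries. Only Dsc2 passed the threshold over the 12289 genes tested, with Pearson r = 0.90 (n = 9, exact permutation p = 4.96e-05, adjusted 0.0265) and Spearman rho = 0.97 (adjusted exact permutation p = 0.0847), where 1.02% of all genes passed with a positive and 0.057% with a negative r. Without the libraries farthest from the median index, replicates 1 and 4, its r was 0.92 (n = 7, adjusted exact permutation p = 0.625), and without replicate 1 alone it was 0.92 (n = 8, adjusted exact permutation p = 0.305). The other desmosomal genes had r of 0.94 for Dsp, 0.92 for Pkp2 and 0.85 for Dsg2 (adjusted exact permutation p = 0.0919, 0.0813 and 0.0680, n = 9), and without those 2 libraries r was 0.58, 0.55 and 0.76. For Gja1 r was 0.85 (adjusted exact permutation p = 0.221, n = 9) and -0.16 without the 2 libraries, so that its relation rested on them. Cdh2 had 0.83, Jup 0.71 and Ctnna3 0.76 (adjusted exact permutation p = 0.159, 0.203 and 0.199, n = 9), and without the 2 libraries 0.36, 0.21 and 0.72. Tjp1 had 0.43 (adjusted exact permutation p = 0.501, n = 9) and -0.63 without them.

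**Figure D3:**
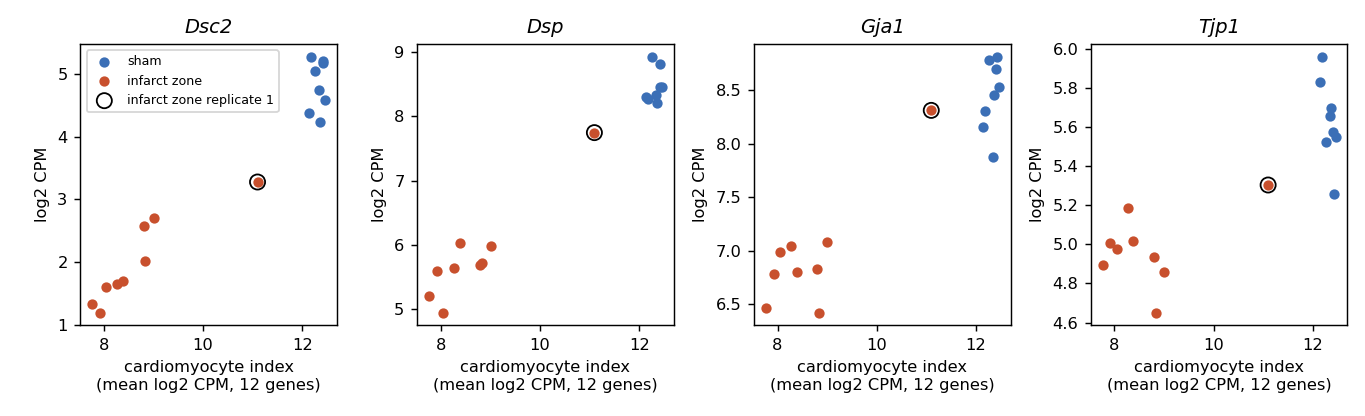
Log2 CPM of Dsc2, Dsp, Gja1 and Tjp1 against the cardiomyocyte index (mean log2 CPM of 12 marker genes) in 8 sham (blue) and 9 infarct zone (red) libraries, with IZ replicate 1 circled. Replicate 1 lies between the groups at an index of 11.1, and among the other IZ libraries Dsc2 is higher where the index is higher (r = 0.92), while Tjp1 is not (r = -0.46).

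By the pattern of deviations from the group means over the 17 libraries, the genes most like Dsp among 9284 of sufficient level were Pygm and Tom1l2 (Pearson r of 0.96 each). For Gja1 they were Hipk3 (0.92) and Gm11407 (0.91), for Cdh2 Rtn2 (0.93), and for Pkp2 Rnf207 (0.93) and Stradb (0.92). Dsg2 was most like Slc38a3 and Ttn (0.89 each), Dsc2 most like mt-Ta (0.91) and Mapre2 (0.89), and Ctnna3 most like Klhl40 (0.92). The highest values were lower for Jup, with Mhrt (0.85) and R3hdm4 (0.83), and for Tjp1, with Trp53i11 (0.80) and Nrarp (0.79). These values share IZ replicate 1 as an extreme library and are a description.

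The other genes of the junctions did not all follow. Of 21 connexin and pannexin genes, Gja1 among them, 17 had a feature and 6 were tested, with 2 lower, 3 higher and a median log2 fold change of 0.35. Over all tested genes 33.1% were lower and 36.3% higher, so these counts say nothing particular to the list. Gja3, a connexin best known from the lens, went from 6.27 to 17.95 CPM in sham to 0.98 to 5.74 CPM in the IZ, without overlap, a log2 fold change of -2.44 (SE 0.32). Gja5, the connexin of atria, Purkinje fibres and arterial endothelium, had 3.31 to 9.90 CPM in sham and 4.67 to 25.2 CPM in the IZ, with 6 of 9 IZ libraries above every sham library, and rose by 1.03 (SE 0.31). Panx1, a channel that releases ATP from many cell types, rose by 2.84 (SE 0.30), from 4.57 ± 3.27 to 30.6 ± 7.91 CPM, and every IZ library was above every sham library, as for 16.6% of all tested genes. With the total count alone 4 of the 6 were higher and 2 lower, where 14.3% of the 10710 genes called in all were lower.

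Of 14 other desmosome genes 3 were tested and 2 were lower, against 33.1% of all tested genes. Perp, a membrane protein of desmosomes, had 98.2 to 171 CPM in sham and 15.3 to 81.1 CPM in the IZ, a log2 fold change of -2.21 (SE 0.24). Pkp4 is given above. Des, the desmin filament gene that Dsp anchors to, had 2203 ± 646 CPM in sham and 1781 ± 475 CPM in the IZ and was not called (log2 fold change -0.31, adjusted p = 0.187, edgeR). Without IZ replicate 1 it was called lower at -0.41 (adjusted p = 0.0321, edgeR), and with the total count alone higher at 0.73 (adjusted p = 0.00179, edgeR). The desmosomal genes of stratified epithelia Dsg1a, Dsg1b, Dsg1c, Dsg3, Dsc1 and Pkp1 had at most 3 counts in every library. The remaining untested genes of the list with a feature passed 3 counts in some library and are not reported here.

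The 15 tested of 23 other adherens junction genes were divided, with 7 lower, 6 higher and a median of -0.21. Over all tested genes 33.1% were lower and 36.3% higher, so this split says nothing particular to the list. With the total count alone 2 were lower and 11 higher, where 14.3% of the 10710 genes called in all were lower. Lmo7, which links to afadin and actin at junctions, had 227 to 328 CPM in sham and 16.7 to 127 CPM in the IZ, a log2 fold change of -2.86 (SE 0.30). Cdh13, an anchored cadherin of endothelium and muscle, had 193 ± 27.1 and 59.0 ± 43.2 CPM (log2 fold change -1.71, SE 0.25). No sham library held more than 2 counts of Cdh3, the P-cadherin gene, while the IZ libraries had 7.18 to 19.2 CPM, a mean at least 7.30-fold higher than the level of 3 counts averaged over the sham libraries.

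The disc scaffold list had 19 of 20 genes tested, 14 lower and 3 higher, against 33.1% and 36.3% of all tested genes, with a median of -1.63. Bves, a membrane protein of the Popeye family, went from 59.5 ± 11.99 to 7.51 ± 6.99 CPM (log2 fold change -3.04, SE 0.30), and Ldb3, a Z-disc protein, from 733 ± 59.6 to 91.5 ± 102 CPM (log2 fold change -3.01, SE 0.37, and -3.72 without IZ replicate 1). In the other direction, the actin regulators Zyx and Vasp rose by 1.52 (SE 0.12) and 1.33 (SE 0.14), from 40.9 and 48.5 CPM in sham to 117 and 122 CPM in the IZ, with every IZ library above every sham library. With the total count alone 11 of the 19 were lower and 7 higher.

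Of 29 conduction genes 22 were tested, and 18 were lower and 2 higher, against 33.1% and 36.3% of all tested genes. Their median was -2.01, beside -1.85 for the 9 disc genes. For 16 of the 22 every IZ library lay below every sham library, against 16.5% of all tested genes. Kcnj3, a subunit of the acetylcholine-activated potassium channel, went from 26.7 to 59.97 CPM in sham to 0 to 10.1 CPM in the IZ, where the median was 0.67 CPM (log2 fold change -4.92, SE 0.43). Scn4b, a sodium channel beta subunit, went from 7.06 to 18.4 CPM in sham to 0 to 5.74 CPM in the IZ, and its median there was 0 (log2 fold change -4.36, SE 0.58). Replicate 1 set the upper end of both IZ ranges. The other IZ libraries had at most 1.08 CPM of Kcnj3 and 0.28 CPM of Scn4b, and without replicate 1 the fitted changes were -6.19 and -6.58, which at so few counts depend on the prior count. Gja5 and Gjc1 stand in this list too. With the total count alone 16 of the 22 were lower and 4 higher. Without IZ replicate 1 the counts of lower and higher genes were 18 and 2 for conduction, 15 and 3 for the scaffold, 7 and 6 for the adherens list, 3 and 0 for the desmosome list and 2 and 3 for connexins and pannexins.

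**Figure D4:**
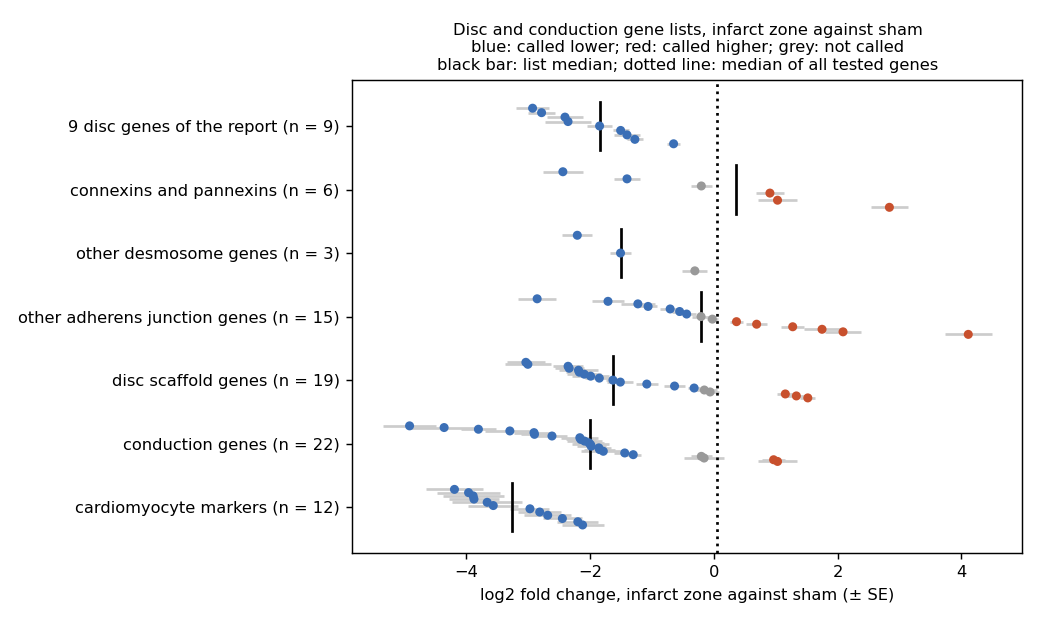
Log2 fold change (infarct zone against sham, bars ± SE) of each tested gene of 7 lists, blue where called lower, red where called higher and grey where not called, with the list median as a black bar and the median of all tested genes, 0.05, as a dotted line. The 9 disc genes and the 12 cardiomyocyte markers are all on the lower side, with medians of -1.85 and -3.27, while connexins and adherens junction genes lie on both sides.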

How the data were processed

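MACE 3′ end libraries of 8 sham left ventricles and 9 infarct zones were analysed. The authors isolated DNase-treated total RNA, added molecular identifiers, which per the labels serve to remove PCR duplicates, trimmed reads with Cutadapt and counted transcripts on mm10 with HTSeq, and the submitters' processing notes also name bcl2fastq, Bowtie2 and DESeq2. The deposited values were raw counts per gene, with no normalization. The annotation release and the strand setting are not given in the sources used here. As 1 tag stands for 1 transcript end, CPM values were not divided by length and levels were not compared between genes other than as changes of a ratio.

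Counts were scaled by TMM and genes kept by filterByExpr (minimum count 10). The groups were compared with the quasi-likelihood F-test of edgeR 4.0.16 (R 4.3.3), unpaired, over 12301 genes with Benjamini-Hochberg adjustment, in place of the DESeq2 test of the study, which was run as an alternative (version 1.42.0). Log2 CPM used a prior count of 1. Permutation tests were two-sided and exact, enumerated with NumPy 2.4.6 over 24310 divisions of the libraries or 362880 pairings. The p-values of pair ratios were adjusted over the pairs. The test across genes was also run on simulated counts in which 200 genes changed. Far more genes were called here, so that run does not cover a shift this wide or the choice of scaling. Gene positions came from GENCODE M21 (GRCm38), which held 31554 of the 31647 identifiers, and 35 features were merged genes, given no name, with at most 0.215% of a library's counts. Of the listed genes 7 had no feature and were not analysed here.

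The 9 genes and all lists were chosen with earlier results of these data known. Named were the 9 genes, their partners in 7 family pairs, the 2 highest and 2 lowest log2 fold changes of each list, and the 2 genes most like each of the 9 by deviations from the group means, among genes averaging 10 CPM or more. Alternatives were other scalings, filters and tools, a replicate block, other marker subsets, another prior count and each library left out in turn. Some genes that the rule names, 1 of the 7 pairs among them, are not reported here. The study's methods name separate mice, so the p-values cover the spread between mice. The intervals of the ratios were built from the variances between the libraries of each group, so they cover that spread as well. The floor of 3 counts covers counting error in a single library only.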

Additional observations from a re-analysis of the deposited data

Results flagged for a closer look

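In groups of 4 to 10 libraries, a library was picked out where its gap to the nearest other, divided by the range of the group, passed Dixon's 95% value. Of 36 groups tested 7 had such a library, where chance picks out about 1 in 20, and in each it was IZ replicate 1, so these are not separate events. It held 317 CPM of Gja1, against 85.3 to 135 CPM in the other IZ libraries. For Cdh2 it held 204 CPM against 89.5 to 136, for Dsp 214 CPM against 30.6 to 64.8, for Pkp2 111 CPM against 25.1 to 56.8, and for Ctnna3 5.74 CPM against 0 to 2.52. Its cardiomyocyte index was 11.1 (others 7.76 to 9.01) and its mitochondrially encoded share of counts was 19.5% (others 4.22% to 6.78%). The other 4 disc genes were also highest there, at 107 CPM for Jup, 39.1 CPM for Tjp1, 23.0 CPM for Dsg2 and 9.33 CPM for Dsc2, without passing that value.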

How the results depend on the processing

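The 9 disc genes kept their direction and their call with size factors of DESeq2, upper quartile scaling, the Wald test of DESeq2, no filter on low counts, mitochondrial features removed, the replicate block and each of the 17 libraries left out. With a mean of at least 50 counts Dsc2 and Ctnna3 were not tested and 5239 genes were called in all, against 8544. With the total count alone 7 disc genes were lower and 1 was higher, Tjp1 at 0.41 (adjusted p = 0.00420, edgeR), and Jup was at -0.23 (adjusted p = 0.0960, edgeR). That scaling moved the median over all genes by itself, from 0.05 to 1.13.

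Same-numbered sham and IZ libraries gave correlations of deviations of -0.22 to 0.13 over 8 numbers, with no sign of pairing. Differently numbered libraries were not compared, so this check cannot show that the numbers carry no pairing. With the replicate block 9 disc genes were lower and 8076 genes were called in all, and relative to the cardiomyocyte markers 7 were higher, Dsg2 no longer being called (0.83, adjusted p = 0.0567, edgeR). On that relative scale Dsc2 was called without IZ replicate 1 (0.76, adjusted p = 0.0108, edgeR), and leaving out single libraries gave 8 to 9 disc genes called higher.

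Pkp2 to Pkp4 had an unadjusted p under 0.05 with a prior count of 5 (-0.41, exact permutation p = 0.0432) and without IZ replicates 1, 6 or 8 (range over single libraries left out -0.50 to -0.32). The change of Dsg2 to Dsc2, near 0, took either sign, with -0.21 at a prior count of 5 and -0.11 to 0.12 over libraries left out. The correlation with the cardiomyocyte index turned negative for Gja1 without the 2 farthest libraries (-0.16), and for Tjp1 without them (-0.63), without IZ replicate 1 (-0.46, an alternative chosen after seeing the data) and with total count CPM (-0.45). Ctnna3 and Dsc2 have few counts in the IZ, which limits their ratios most.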

Other observations

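Outside the naming rule, and chosen after their values were seen, 3 more genes are given. The inward rectifier Kcnj2 went from 13.8 to 34.9 CPM in sham to 2.56 to 10.1 CPM in the IZ (log2 fold change -2.15, SE 0.24). No sham library held more than 1 count of Gjb5, a connexin of epithelia, while the IZ libraries held 4 to 69, a mean of 5.38 ± 2.88 CPM, at least 3.04-fold higher than the level of 3 counts in sham. It was not among the genes tested. Gja4, an arterial endothelial connexin, rose by 0.91 (SE 0.23), from 9.89 ± 2.67 to 19.0 ± 7.09 CPM, with 7 of 9 IZ libraries above every sham library.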
